A study of Rattus norvegicus with 8 samples.

Results

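The genes described here are the FoxO transcription factors Foxo1, Foxo3 and Foxo4 and 7 genes known as their targets or as parts of the insulin and growth factor pathway around them: Txnip, Klhl24, Ccng2, Pik3ip1, Irs2, Sesn1 and Fbxo32. A gene was taken when the RefSeq accessions of a locus in the RNA table mapped to its symbol alone, and the locus with the highest mean level stood for it. At the Foxo1 locus 1 of 3 accessions and at the Fbxo32 locus 1 of 5 had a symbol in the RefSeq table used, and the others had none. Of the 10 genes, 8 had such a locus among 14767 symbols with a locus, and Pik3ip1 and Sesn1 had none and were not analysed here. Symbols came from a later build (GRCr8) than the loci (rn4), so a locus of either gene may have gone unmatched. The set was chosen by the measured RNA values, with the log2 ratios between the conditions in view, so every difference below is a description with no test.

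The cells were smooth muscle cells in primary culture, taken from thoracic aortas of Sprague-Dawley rats. Control cells were untreated, and the others received 0.1 uM angiotensin II (AngII), a peptide hormone that constricts vessels, for 3 h after a night without serum. A serum-free night is not stated for the controls, so AngII and serum withdrawal cannot be told apart by the labels. RNA-seq and ChIP-seq of H3K4me3 and H3K36me3 each had 1 library per condition, which leaves no replicate check and no p-value. Of 8 smooth muscle markers 7 were expressed, at a summed 5545 FPKM in control and 5770 after AngII, most of it Tagln (5103 and 5244), while Des was below 1 FPKM. The 6 endothelial markers with a locus summed to 0.718 and 0.462 FPKM, with Cldn5, Emcn and Tie1 listed at 0. The 8 leukocyte markers summed to 11.6 and 12.4 FPKM, nearly all of it Cd14 (5.46 and 6.77) and Cd74 (5.51 and 5.04), with Ptprc, Cd3e and Itgam listed at 0. Adventitial fibroblast markers were present, 7 of 7 with a locus, at a summed 323 and 282 FPKM, and their part in the differences was not tested. In bulk RNA, fewer cells of a type and less RNA per cell cannot be told apart.

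FoxO proteins are forkhead transcription factors that switch on genes of growth arrest, protein breakdown, autophagy and oxidative stress defence when growth signals are low. Insulin and growth factor receptors act through IRS adaptors, phosphoinositide 3-kinase (PI3K) and the kinases Akt and SGK, which phosphorylate FoxO proteins so that they bind 14-3-3 proteins and leave the nucleus. This control acts on the protein, which was not measured, and the RNA levels below show nothing of where FoxO proteins were in the cell.

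Levels are in FPKM, fragments scaled to transcript length and library size, each with the lower and upper bound that the authors deposited. The bounds are model errors at 2 SD either side and hold no variation between cultures, and the sequencing depth is not known. The log2 ratio is that of AngII to control after adding 1 FPKM, and its SD is the one implied by the bounds. Across 8354 expressed symbols (1 FPKM or more in either library) the median log2 ratio was -0.22, with an interquartile range of -0.46 to 0.08, so small negative ratios were common. All 8 genes were expressed.

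Of the 8 genes, 5 were at least 2-fold lower after AngII (Txnip, Klhl24, Ccng2, Foxo3 and Fbxo32) and 0 were at least 2-fold higher. Over all expressed symbols 2.96% were at least 2-fold lower and 3.89% at least 2-fold higher, 6.85% in all. Since these ratios were known when the genes were chosen, the count is not read against those shares. Before the addition of 1 FPKM, the 5 genes were between 2.55-fold and 3.03-fold lower. The bounds were apart for 4 of the 5, all but Foxo3; 2.19% of expressed symbols were lower and 3.02% higher with bounds apart, and 1.58% and 2.71% were also past 2-fold. Foxo4 was lower to a smaller degree, and Foxo1 and Irs2 differed little. The median log2 ratio of the 8 genes was -1.14. With AngII values scaled by 1.21 to centre the median locus, Txnip, Klhl24 and Ccng2 were still past 2-fold, while Foxo3 and Fbxo32 came to -0.94 and -0.95. With a pseudocount of 5 in place of 1 FPKM, 2 of the 8 genes (Txnip and Klhl24) were past 2-fold, while Foxo3 came to -0.75, Ccng2 to -0.70 and Fbxo32 to -0.53.

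**Figure D1:**
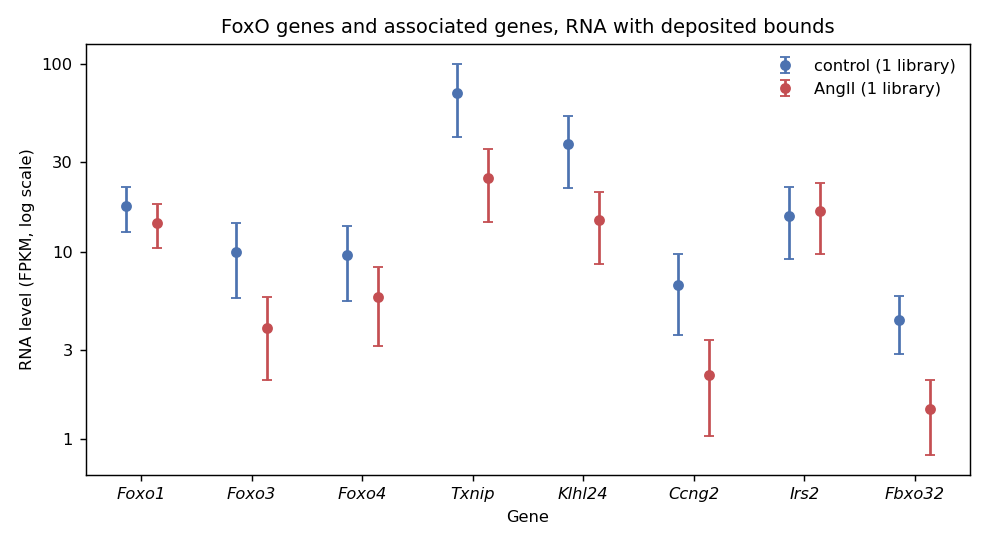
RNA level of each gene in FPKM on a log axis, with 1 point per library (control blue, AngII red) and bars from the lower to the upper deposited bound. The bars are apart for Txnip, Klhl24, Ccng2 and Fbxo32, touch over 0.0601 FPKM for Foxo3 and overlap widely for Foxo1, Foxo4 and Irs2.

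Promoter sequences (RefSeq, build GRCr8, 250 bases before to 50 after the start site) were at hand for Foxo1, Foxo4, Klhl24 and Ccng2 of the 8 genes. They are shown to set the start regions of 2 genes with RNA at least 2-fold lower, Klhl24 and Ccng2, beside those of 2 FoxO genes that were not past 2-fold. The histone regions are on rn4 and were not placed on these sequences. Capitals mark AAACA or its reverse complement TGTTT, the core of the forkhead recognition sequence, chosen after the longer motifs had been searched.
Klhl24, chr11:94382001-94382300, minus strand: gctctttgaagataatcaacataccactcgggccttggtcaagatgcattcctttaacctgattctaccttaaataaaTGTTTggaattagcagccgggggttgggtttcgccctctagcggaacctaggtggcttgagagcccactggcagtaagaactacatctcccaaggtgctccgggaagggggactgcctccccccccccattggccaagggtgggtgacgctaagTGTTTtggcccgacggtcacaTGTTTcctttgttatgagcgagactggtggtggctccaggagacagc
Ccng2, chr14:15097141-15097440, minus strand: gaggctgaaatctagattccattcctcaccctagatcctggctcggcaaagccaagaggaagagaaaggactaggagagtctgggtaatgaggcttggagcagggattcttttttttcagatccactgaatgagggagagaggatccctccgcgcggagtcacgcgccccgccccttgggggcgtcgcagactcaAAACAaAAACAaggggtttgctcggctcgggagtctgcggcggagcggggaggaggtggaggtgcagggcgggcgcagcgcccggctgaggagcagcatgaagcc
Foxo1, chr2:138462724-138463023, plus strand: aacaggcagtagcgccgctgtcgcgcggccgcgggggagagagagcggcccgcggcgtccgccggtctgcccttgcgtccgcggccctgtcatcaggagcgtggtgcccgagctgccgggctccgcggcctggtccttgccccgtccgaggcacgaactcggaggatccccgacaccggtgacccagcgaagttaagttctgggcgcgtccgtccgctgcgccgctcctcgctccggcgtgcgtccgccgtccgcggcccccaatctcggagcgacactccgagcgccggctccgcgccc
Foxo4, chrX:70425313-70425612, plus strand: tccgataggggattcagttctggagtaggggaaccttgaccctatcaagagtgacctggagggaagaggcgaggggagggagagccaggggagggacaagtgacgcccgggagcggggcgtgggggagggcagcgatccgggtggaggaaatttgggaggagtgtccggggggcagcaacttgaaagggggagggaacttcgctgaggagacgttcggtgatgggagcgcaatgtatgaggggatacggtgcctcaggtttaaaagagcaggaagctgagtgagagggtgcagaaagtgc

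Klhl24 held the core 3 times and Ccng2 held it 2 times, with a single base between the copies, while Foxo1 and Foxo4 held none. The core stood in 51.9% of 33469 promoter windows on either strand and in 4 of the 6 windows of the listed genes, those of Pik3ip1 and Sesn1 included, so its presence in a window is common. The longer FoxO sequence GTAAACA (reverse complement TGTTTAC) was in none of the 4 windows and in 3.78% of all. Of the 6 listed genes with a window, Pik3ip1, to which no locus was matched, held it once, and Sesn1 did not. The E-box CACGTG, which is its own reverse complement, was in none of the 6 and in 6.42% of all. The Foxo1 window was rich in CpG, with 49 CpG pairs and an observed to expected CpG ratio of 1.17 that exceeded 99.2% of windows. The ratio was 0.69 for Ccng2, 0.68 for Foxo4 and 0.42 for Klhl24, beside a median of 0.39 over all windows.

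The 3 transcription factors had unlike ratios, although their model errors overlap. Foxo1, the FoxO factor best known from insulin action (XLOC_014254, rn4 chromosome 2, 141127030 to 141207202) was at 17.5 FPKM (bounds 12.8 to 22.2) in the control library and at 14.3 FPKM (bounds 10.5 to 18.0) after AngII. Its log2 ratio of -0.28 (SD 0.25) lay near the median of all expressed symbols, and 43.5% of them had a lower ratio. Its bounds were the narrowest of the 8 genes relative to the level and would have separated from a 1.72-fold difference on. Foxo3 (XLOC_016791, chromosome 20, 46171783 to 46262818) was at 9.99 FPKM (bounds 5.68 to 14.3) in the control library and at 3.90 FPKM (bounds 2.07 to 5.74) after AngII. This was 2.56-fold lower, with a log2 ratio of -1.16 (SD 0.39), and its bounds overlapped by 0.0601 FPKM. Foxo4 (XLOC_030035, chromosome X, 89332277 to 89338835) was at 9.61 FPKM (bounds 5.46 to 13.8) in the control library and at 5.73 FPKM (bounds 3.14 to 8.33) after AngII, a log2 ratio of -0.66 (SD 0.40), and its bounds overlapped.

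Foxo1 had the highest RNA level of the 3 in both libraries. In control its bounds overlapped those of Foxo3 and Foxo4, and the level was 1.75 times that of Foxo3 and 1.82 times that of Foxo4. After AngII it was 3.66 times the level of Foxo3 and 2.49 times that of Foxo4, with its lower bound above the upper bounds of both. The summed RNA of Foxo1, Foxo3 and Foxo4 was 37.1 FPKM in control and 23.9 FPKM after AngII. Foxo6, also looked for, matched no locus and is not in the sum. Foxo1 made up 47.2% of that sum in control and 59.7% after AngII, Foxo3 26.9% and 16.3%, and Foxo4 25.9% and 24.0%.

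Txnip had the highest level and the lowest ratio of the 8 genes. Txnip encodes an arrestin-like protein that binds thioredoxin and restrains glucose uptake. It was at 70.7 FPKM (bounds 40.9 to 101) in the control library and at 24.8 FPKM (bounds 14.5 to 35.2) after AngII (XLOC_014437, chromosome 2, 191356953 to 191360754). The level was 2.85-fold lower, with a log2 ratio of -1.47 (SD 0.42), and 0.551% of expressed symbols had a lower ratio. Klhl24, a kelch-repeat adaptor of a cullin ubiquitin ligase, was at 37.6 FPKM (bounds 21.9 to 53.2) in the control library and at 14.7 FPKM (bounds 8.57 to 20.9) after AngII (XLOC_006429, chromosome 11, 83094560 to 83126617). Its log2 ratio was -1.29 (SD 0.41), and its bounds were apart like those of Txnip.

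Ccng2 and Fbxo32 were expressed at lower levels and differed by a similar factor. Ccng2, an unconventional cyclin linked to growth arrest, was at 6.68 FPKM (bounds 3.60 to 9.76) in the control library and at 2.20 FPKM (bounds 1.04 to 3.37) after AngII (XLOC_008680, chromosome 14, 16338131 to 16346628). It was 3.03-fold lower, the most of the 8 genes before the addition of 1 FPKM, and its log2 ratio with it was -1.26 (SD 0.39). A second locus of the same accession of 1252 bp beside the first was at 0.801 FPKM (bounds 0.242 to 1.36) in the control library and at 0.144 FPKM (bounds 0 to 0.289) after AngII, with bounds that overlapped. Fbxo32 encodes atrogin-1, an F-box protein of muscle wasting. It was at 4.31 FPKM (bounds 2.84 to 5.78) in the control library and at 1.45 FPKM (bounds 0.821 to 2.07) after AngII (XLOC_025906, chromosome 7, 94903634 to 94942729). It was 2.98-fold lower, with a log2 ratio of -1.12 (SD 0.27) and bounds apart. Of 9 skeletal and cardiac muscle markers with a locus, 7 were below 1 FPKM in both libraries, Myog and Myod1 among them, and Nppa was listed at 0. The other 2 were Tnnt3 at 1.14 and 0.741 FPKM and Myh1 at 17.7 and 32.3 FPKM, and Myh1 has close paralogs whose reads could be shared.

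Irs2, the adaptor that couples insulin and growth factor receptors to PI3K, was the only one of the 8 genes with a ratio above 0. It was at 15.6 FPKM (bounds 9.14 to 22.1) in the control library and at 16.6 FPKM (bounds 9.69 to 23.4) after AngII (XLOC_010555, chromosome 16, 83379986 to 83404220). Its log2 ratio was 0.08 (SD 0.40), the bounds overlapped almost fully, and only a difference of 2.42-fold or more would have separated them.

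**Figure D2:**
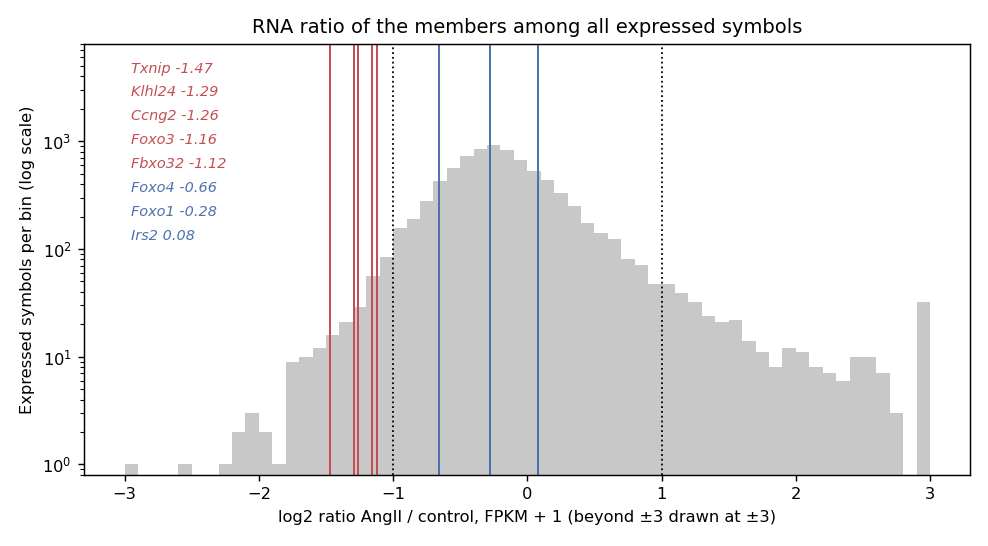
Number of expressed symbols (log axis) in bins of 0.1 of the log2 ratio of AngII to control, with 1 vertical line per gene, red at 2-fold lower or beyond and blue otherwise, and dotted lines at 2-fold. The 5 red lines lie in the lower tail, where between 0.551% and 1.78% of symbols have a lower ratio, while Foxo1 at -0.28 lies near the median of -0.22.

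Foxo4, Txnip, Klhl24 and Fbxo32 had other expressed genes with a symbol within 50 kb, 6 in all, 0 of them at least 2-fold lower or higher, with log2 ratios between -0.66 and -0.13. The lowest was Yeats2, 29.84 kb from Klhl24, at 8.35 FPKM (bounds 4.85 to 11.8) in the control library and at 4.93 FPKM (bounds 2.81 to 7.05) after AngII. Ntaq1, 22.91 kb from Fbxo32, stood at 4.69 and 4.21 FPKM.

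Unnamed transcripts lay within 50 kb of Irs2, Foxo1, Txnip and Ccng2. The H3K4me3 region of Irs2 marks the lower-coordinate end of its locus. Beyond that end, within 30 kb, 5 short unnamed loci were all below 1 FPKM and all lower after AngII, 1 of them with bounds apart. That one, XLOC_011281, 4.16 kb from Irs2, was at 0.716 FPKM (bounds 0.194 to 1.24) in the control library and at 0.0789 FPKM (bounds 0 to 0.190) after AngII. Past the other end were 3 unnamed loci, 1 lower and 2 higher after AngII, with bounds that overlapped. For scale, 70.0% of expressed symbols had a ratio below 0. With so few loci at such low levels, no difference between the ends is read from these counts. Near Foxo1, the unnamed locus XLOC_015781 of 1599 bp, 26.60 kb before its start, was at 33.7 FPKM (bounds 19.5 to 47.9) in the control library and at 51.1 FPKM (bounds 29.9 to 72.4) after AngII. Its bounds overlapped and its level exceeded that of Foxo1 in both libraries, although in control its bounds overlapped those of Foxo1. The unnamed locus was fully under an H3K36me3 region in control and under none after AngII, and had no H3K4me3 region within 1 kb in either. It spans few of the steps of 589 bp and 548 bp in which the H3K36me3 lists are drawn. The unnamed locus XLOC_016019 of 199 bp, 44.23 kb before Txnip, had 21.0 and 13.3 FPKM and H3K4me3 in both conditions. XLOC_009019, 29.46 kb past Ccng2, had 0.794 and 0.345 FPKM, and the bounds of both loci overlapped.

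H3K4me3, a mark of promoters, was called within 1 kb of all 8 loci in both conditions, as at 96.3% of expressed symbols in control and 96.3% after AngII. The region with the authors' highest score lay over 1 end of the locus at 7 of the 8 genes and covered the whole short locus of Txnip. Its width was at least 1.2-fold narrower at 4 of the 5 genes with RNA at least 2-fold lower (Foxo3, Fbxo32, Txnip and Ccng2), and at 0 of the other 3. The share over 8015 expressed symbols with a region in both conditions was 17.6%, and 24.7% had a region at least 1.2-fold wider. The 1.2-fold limit was set after the widths were seen, and at 1.5-fold 1 gene, Foxo3, had a narrower region, beside 7.22% of symbols. With the widths of all regions of a locus summed, the count was 3 of the 8 genes, beside 15.6% of symbols, and Foxo3 was no longer among them. The score of the highest region went the other way from its width at these 4 genes. In control and after AngII it was 44.6 and 69.1 at Foxo3, and 37.2 and 51.5 at Fbxo32. It was 31.2 and 40.0 at Txnip, and 42.4 and 51.5 at Ccng2. Of the other genes, Klhl24, Foxo1 and Irs2 had a higher score after AngII and Foxo4 a lower one. A higher score was thus not confined to the genes with a narrower region. How scores differed over all expressed symbols is not given here. The meaning of the score is not stated, so whether H3K4me3 was less or more was not tested. The regions come from the same pair of conditions as the RNA values, so they too are a description.

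At Foxo3 the region was 10251 bp wide in control and 6240 bp after AngII, which is 1.64-fold narrower. Its outer edge lay 2.62 kb past the locus end in control and 2.51 kb after AngII, while its inner edge lay 7.63 kb inside the end in control and 3.73 kb after AngII. A separate region of 1280 bp, from 8.04 kb to 6.77 kb inside the end, was called after AngII. It overlapped the inner end of the control region, so the narrower width there reflects a gap between calls. With its weaker internal regions, Foxo3 held 26316 bp in 4 regions in control and 22240 bp in 5 after AngII, 1.18-fold less. At Fbxo32 the width was 4743 bp and 3200 bp, with the inner edge at 3.62 kb and 1.83 kb and the outer edge at 1.12 kb and 1.37 kb. At Ccng2 it was 5355 bp and 4320 bp, with the inner edge at 3.49 kb and 2.48 kb and the outer edge at 1.86 kb and 1.84 kb. In these 3 genes the highest-scoring region ended nearer the locus end on its inner side after AngII. At Foxo3 the separate inner region reached slightly further in than the control region. At Txnip the region of 9486 bp in control and 6880 bp after AngII was shorter before the locus start, where it reached 3.94 kb and 1.52 kb.

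The other 4 genes had regions of like width in both conditions. Klhl24, although 2.55-fold lower in RNA, had 2754 bp and 2560 bp. Foxo1 had 6273 bp and 6560 bp, Foxo4 3519 bp and 3840 bp, and Irs2 11016 bp and 10880 bp. Widths are whole multiples of 153 bp in the control list and of 160 bp in the AngII list. Differences of about that size are thus at the resolution of the calls. A region of the same number of steps also comes out slightly wider after AngII, which shifts width ratios upward.

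**Figure D3:**
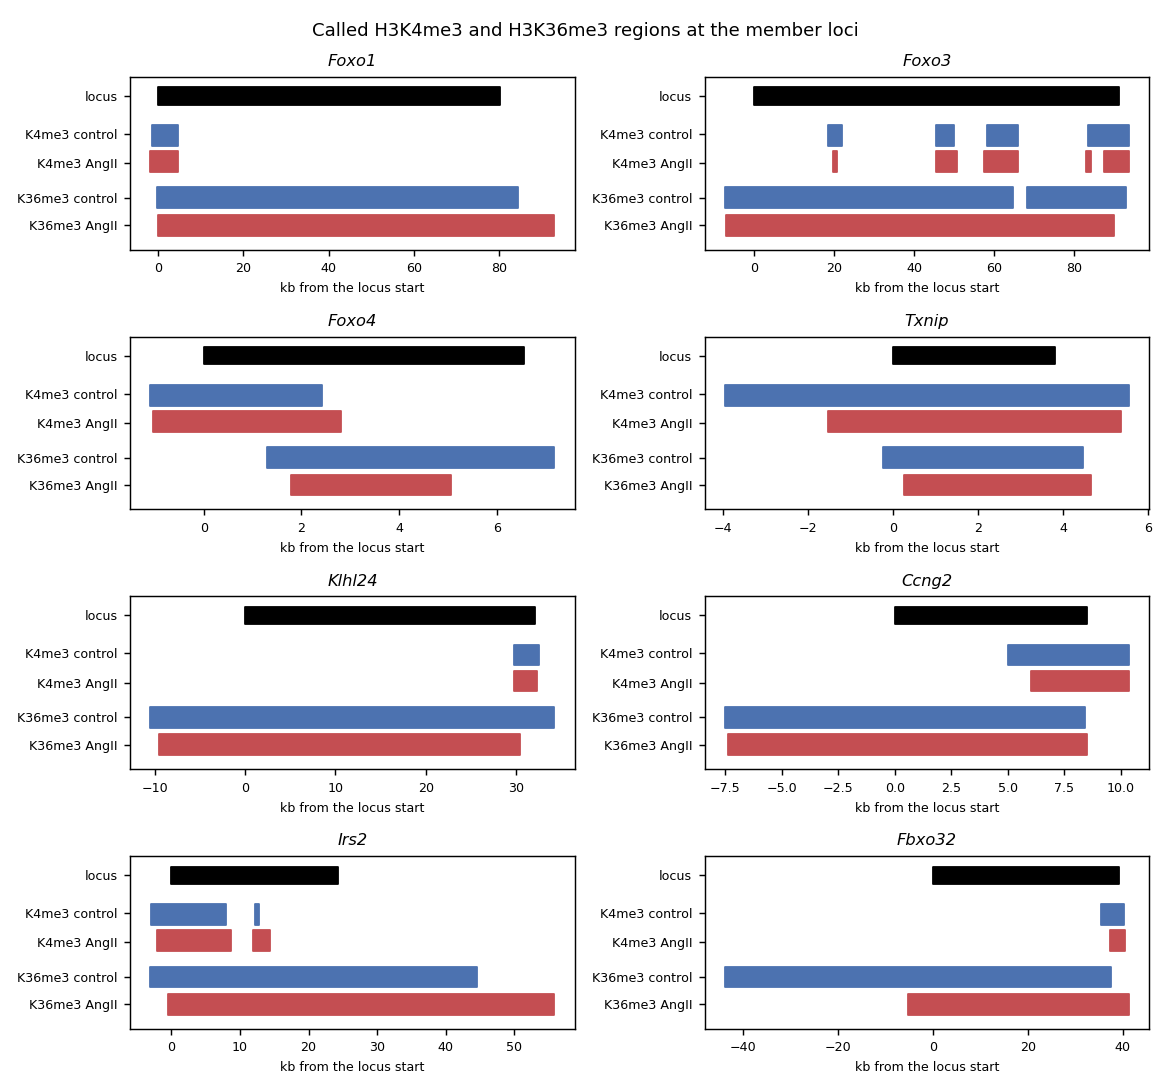
Called H3K4me3 and H3K36me3 regions (control blue, AngII red) at each of the 8 loci (black), in kb from the locus start, each panel on its own scale. The H3K4me3 region at the right end of Foxo3, Ccng2 and Fbxo32 is shorter on the inner side after AngII, and that of Txnip is shorter on the left. At Foxo3 a separate small AngII region overlaps the inner end of the control region.

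Over all expressed symbols the width and RNA ratios were only weakly related. Spearman's rho was 0.17 across 8015 symbols, which are not independent replicates and share 1 pair of libraries per assay. The median log2 width ratio was -0.06 for the 231 symbols with RNA at least 2-fold lower, 0.28 for the 306 at least 2-fold higher and 0.06 for the other 7478. Width ratios and shares were not corrected for the larger step after AngII. A region at least 1.2-fold narrower was found at 25.5%, 5.23% and 17.8% of them. The log2 width ratio was -0.72 at Foxo3, -0.57 at Fbxo32, -0.46 at Txnip, -0.31 at Ccng2 and -0.11 at Klhl24.

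**Figure D4:**
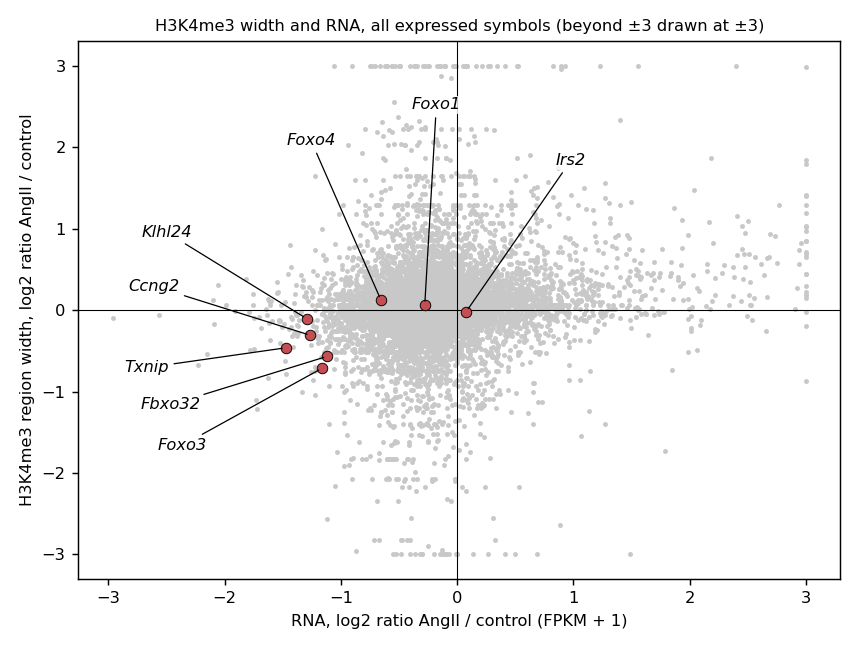
Log2 ratio of H3K4me3 region width (y) against log2 ratio of RNA (x), AngII to control, for 8015 expressed symbols (grey) and the 8 genes (red, named). Foxo3, Fbxo32, Txnip and Ccng2 lie low on both axes, Klhl24 is low in RNA at a width ratio of -0.11, and Foxo1, Foxo4 and Irs2 lie between -0.02 and 0.13 in width.

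H3K36me3, a mark of transcribed gene bodies, was present at all 8 loci in both conditions, beside 95.6% of expressed symbols in control and 97.5% after AngII. It covered at least 90% of the locus at 7 of the 8 genes in control and at 7 after AngII, against 64.2% and 68.6% of expressed symbols. The 5 genes with lower RNA stayed at 90% or more in both. Cover at Foxo3 was 96.1% in control and 98.8% after AngII, at Ccng2 98.8% and 100%, and at Fbxo32 96.1% and 100%. It was 100% and 94.9% at Klhl24, and 100% and 93.3% at Txnip. Foxo4 stood apart with 80.3% in control and 50.1% after AngII, 30.2 points less, while 2.08% of symbols with the mark had at least 20 points less. Its region was 5890 bp and 3288 bp wide, or few of the steps of 589 bp and 548 bp in which these lists are drawn. At Fbxo32 the control region of 81282 bp ran on over its neighbour Ntaq1, while the AngII region of 46580 bp began 5.27 kb before the locus; Ntaq1 was 98.5% and 98.1% covered. Foxo3 had 2 regions in control and 1 region of 96996 bp after AngII.

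All gene lists were chosen with earlier results of these data known, so their counts and medians are a description and the shares are given for scale. Listed genes that matched no locus are not in the counts. Upstream of FoxO, 24 genes listed for the insulin and PI3K-Akt arm were expressed. Of these, 1 was at least 2-fold lower and 1 higher, where 2.96% and 3.89% of all expressed symbols were. Both had bounds apart, and 1.58% and 2.71% of all expressed symbols were past 2-fold with bounds apart. The median log2 ratio of the list was -0.12 (0.15 with the median locus centred). The higher one was Sgk1, a kinase that phosphorylates FoxO proteins, at 3.30 FPKM (bounds 2.07 to 4.53) in the control library and at 47.6 FPKM (bounds 34.9 to 60.3) after AngII, a log2 ratio of 3.50; its symbol matched 2 loci. The lower one was Agtr1a (-1.69), which encodes the G-protein-coupled receptor of AngII and is not itself a part of the insulin pathway. Next were the Akt phosphatase Phlpp1, at 8.80 and 18.0 FPKM (0.95), and the phosphoinositide phosphatase Inpp4b (0.72), both with overlapping bounds; the Inpp4b interval is shared by 2 loci. Of 27 genes listed because their products modify or bind FoxO proteins, 5 matched no locus: Sirt1, Sirt2, Ep300, Kat2b and Mapk8. Among the other 22, all expressed, 0 were past 2-fold, with a median of -0.14 (0.12 centred). Sirt3 (-0.77), a mitochondrial deacetylase, and Prkaa1 (-0.57), an AMP-activated kinase subunit, had the lowest ratios. The 14-3-3 genes Ywhah (0.73) and Ywhag (0.59) had the highest, and the interval of Ywhag is shared by 11 loci.

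Other known FoxO targets are given beside the same shares, 2.96% lower and 3.89% higher, with the same limit. Of 18 expressed targets of cell cycle, death and stress, 0 were at least 2-fold lower and 1 was higher. Their median log2 ratio was -0.48 (-0.22 centred), and 13 lay below the median of all expressed symbols. The list was not split by whether FoxO proteins raise or lower a gene. Rbl2, a pocket protein of cell cycle exit, stood at 13.7 and 6.58 FPKM (-0.95), the kinase inhibitor Cdkn1b was also at -0.95 and the helix-loop-helix inhibitor Id1 at -0.81, all with overlapping bounds. Trib1, a pseudokinase, was the higher one, at 5.03 FPKM in the control library and at 61.5 FPKM after AngII, with bounds apart, a log2 ratio of 3.37. Of 17 expressed targets of atrophy, autophagy and metabolism, 3 were at least 2-fold lower and 0 higher, with a median of -0.14 (0.13 centred). The 3 were the F-box gene Fbxo31 (10.4 and 3.91 FPKM, -1.22) and the autophagy genes Atg14 (9.26 and 3.88 FPKM, -1.07) and Ulk1 (13.5 and 6.18 FPKM, -1.01), and Pik3c3, the lipid kinase that works with Atg14, was at -0.91. All 4 had overlapping bounds, and with the median locus centred 0 of the 17 were past 2-fold.

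The last list holds genes around Txnip. Of 17 genes listed for the thioredoxin system, MondoA-type glucose sensing and genes linked to them, 12 were expressed. The 4 that matched no locus include Mlxip, which encodes MondoA. Of the 12, 1 was lower and 1 higher by at least 2-fold, beside 2.96% and 3.89% of all expressed symbols, with a median of -0.16 (0.10 centred). Both had bounds apart, and 1.58% and 2.71% of all expressed symbols were past 2-fold with bounds apart. Neither is itself a part of the thioredoxin system or of the MondoA sensor. Nlrp3, an inflammasome sensor that Txnip can bind, was at 3.92 FPKM (bounds 2.13 to 5.70) in the control library and at 0.491 FPKM (bounds 0.197 to 0.786) after AngII, a log2 ratio of -1.72. Hk2, the hexokinase that traps glucose in the cell, stood at 2.57 FPKM (1.33 to 3.82) and 23.1 FPKM (13.5 to 32.6), a log2 ratio of 2.75. The glucose transporter Slc2a1 (0.96, 2 loci of the symbol) and the thioredoxin reductase Txnrd1 (47.6 and 76.5 FPKM, 0.67) were higher with overlapping bounds, and the interval of Txnrd1 is shared by 2 loci.

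**Figure D5:**
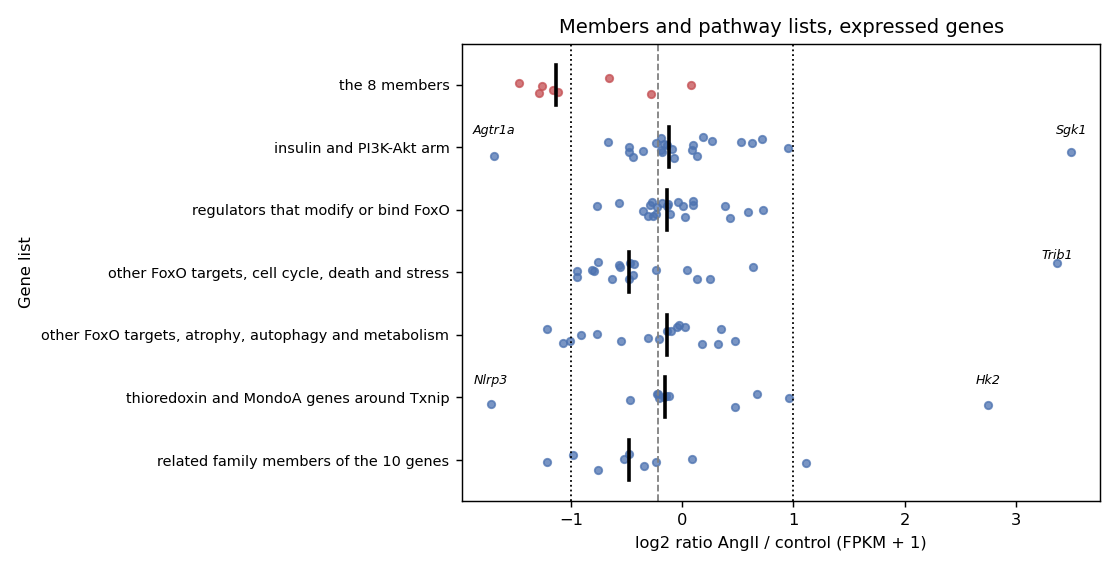
Log2 ratio of RNA, AngII to control, for the 8 genes (red) and the expressed genes of 6 lists (blue), with a black bar at each median, a dashed line at the median of all expressed symbols (-0.22) and dotted lines at 2-fold. The 8 genes have a median of -1.14 and the lists medians between -0.48 and -0.12, of which 4 turn positive with the median locus centred. The 8 genes were chosen with these ratios in view, so their distance from the lists is not a result. The listed genes farthest from 0 are named.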

How the data were processed

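FPKM values with lower and upper bounds were deposited by the authors in 1 table that holds both conditions and was deposited under each RNA sample in identical copies. The submitters' processing notes name TopHat, Cufflinks, Cuffdiff and Bowtie with the assembly rn4 and give no version. Ribosomal RNA was removed before library preparation, per the labels' protocols. The region lists carry a score for each region, deposited by the authors, with no stated meaning. It was used to pick the highest region of a locus and to drop the lowest quartile, and is printed for some genes. Neither the read depth nor the region caller is stated. Input libraries were not analysed here.

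Accessions were paired with symbols through RefSeq's GRCr8 table, for names only. All locus and region coordinates come from the deposited files, on rn4. The RNA loci carry no strand, so overlapping genes cannot be told apart. The genes, the lists and the motifs were chosen with earlier results of these data known. The genes named from each pathway list are the 4 with the largest absolute log2 ratio and any past 2-fold with bounds apart; marker genes were named after their values were seen. A locus had H3K4me3 if a region lay within 1 kb, and H3K36me3 if a region touched it. A planned search of FoxO protein sequences was not run, since no protein table was used here. The ratio and call functions were tested on simulated data with less noise than the deposited bounds imply. The bounds and overlap functions were tested on a few constructed cases. Python 3.11.15, pandas 2.3.3, numpy 2.4.6 and scipy 1.17.1 were used. Groups were taken from the sample titles.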

Additional observations from a re-analysis of the deposited data

How the results depend on the processing

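With 1 library per condition no test was run and the direction of a difference has no replicate check; the deposited bounds of the 8 genes separate only from a difference of 1.72-fold to 2.83-fold on. Of 99 recomputed values other than list medians, 84 stayed within the error given by the bounds (for counts, within 1.5 times; for H3K36me3 cover, exactly) and 15 moved. Some of the 84 could not have moved, so their number does not measure stability. These include summed loci for genes with 1 locus, 2-fold counts without an FPKM minimum, and H3K4me3 counts at a wider margin. With a pseudocount of 0.1, Fbxo32 was at -1.51 and 580 expressed symbols were at least 2-fold lower. With a pseudocount of 5, which shrinks genes at low levels, Foxo3 was at -0.75, Ccng2 at -0.70 and Fbxo32 at -0.53, so 2 of the 8 genes (Txnip and Klhl24) were past 2-fold, beside 50 lower and 198 higher symbols. Centred on the median locus, the median of expressed symbols was 0.03, Foxo1 was at -0.02 and 3 of the 8 genes (Txnip, Ccng2 and Klhl24) were past 2-fold, beside 99 lower and 491 higher symbols; Foxo3 and Fbxo32 were then at -0.94 and -0.95. Higher symbols made up 56.8% of the calls as deposited, 83.2% after centring, and 79.8% and 40.3% at the larger and smaller pseudocount. At a threshold of 1.5-fold 1366 symbols were lower and 663 higher. At a limit of 1.5-fold 1 gene, Foxo3, had a narrower H3K4me3 region, and with summed widths 3 genes did, without Foxo3. The list medians changed sign when centred for the insulin arm (0.15), the FoxO regulators (0.12), the atrophy targets (0.13) and the Txnip list (0.10). No paired analysis was possible because a condition had just 1 library, which also means that leaving out a replicate could not be done. The 1.2-fold width limit, its alternatives, the AAACA search and the list medians by setting were chosen after seeing the data.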

Other observations

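Of 9 expressed relatives of the listed genes, 1 (Fbxo31) was at least 2-fold lower and 1 (Klhl21) higher, beside 2.96% and 3.89% of all expressed symbols, with a median log2 ratio of -0.48 (-0.24 with the median locus centred). The F-box gene Fbxo25, closest in family to Fbxo32, was at 12.8 FPKM (bounds 7.97 to 17.6) in the control library and at 5.99 FPKM (bounds 3.63 to 8.34) after AngII, a log2 ratio of -0.98 with bounds that overlapped. Sesn3, a sestrin that restrains growth signalling, stood at 10.2 and 5.65 FPKM (-0.76). Klhl21, a kelch-like gene of the same family as Klhl24, went the other way, at 27.2 FPKM (bounds 15.9 to 38.5) in the control library and at 59.8 FPKM (bounds 34.5 to 85.1) after AngII, a log2 ratio of 1.11 with overlapping bounds. Irs1 stood near its level in control (0.09), like Irs2, and Ccng1, the relative of Ccng2, was at 207 and 144 FPKM (-0.52); these 2 were named after their values were seen.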
